A study of Mus musculus with 2 samples.

Results

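Genes for endoplasmic reticulum (ER) chaperones and for the unfolded protein response were followed in mouse implantation sites, the pieces of pregnant uterus that each hold a conceptus. The set was drawn up by name as 35 genes, and every probe set of the array whose annotation gives 1 of these genes alone was taken. All 35 genes were on the array, through 75 of the 20380 probe sets with a single gene symbol, and they are 35 of 12393 genes in all. Of these, 34 matched by symbol, and Ero1l was found under its newer symbol Ero1a. They were sorted by role into 16 chaperones and folding enzymes, 5 genes of ER-associated degradation, 8 stress transducers with their transcription factors, and 6 amino acid response genes.

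The tissue came from 4-month-old female mice of mixed genetic background (C57Bl/6J X OLA129), at day 8 of pregnancy. The control group was 1 array of sites from control uteri, and the Cbs null group was 1 array of sites from females homozygous for the loss of Cbs, which encodes cystathionine beta-synthase. The labels name the maternal genotype, while the genotype of the conceptus and any pooling of sites or animals are not given. The question put to these genes is whether their transcripts differ in sites of females that lack the enzyme. Because each genotype has a single array, no difference below could be tested, and all values describe these 2 arrays.

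ER chaperones bind newly made secretory and membrane proteins and help them fold, and protein disulfide isomerases form and rearrange their disulfide bonds. When unfolded protein builds up, the sensors Ern1 (IRE1), Eif2ak3 (PERK) and Atf6 raise transcription of chaperones and of degradation genes and lower general translation. The PERK branch acts through phosphorylated eIF2 and Atf4, a path that is shared with amino acid shortage, so targets of Atf4 include genes of amino acid synthesis. Decidual cells, glandular epithelium and yolk sac endoderm are secretory cells with much ER, and high homocysteine, which follows the loss of Cbs, has been studied as a cause of ER stress in cultured cells.

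Chaperone genes share a promoter element that is read by Atf6 and Xbp1, the ER stress element, and its matches are shown here because it is a well-known regulatory sequence of these genes. It was searched as CCAAT, then any 9 bases, then CCACG, on both strands of the 250 bases before the annotated gene start, in RefSeq promoter windows of build GRCm38.p6. A window was found for 31 of the 35 genes. Of these 31, 8 held a match, against 0.113% of all 32851 windows: 7 of the 14 chaperones with a window, 1 of the 4 degradation genes, none of the 7 stress transducers and none of the 6 amino acid response genes. The window of the degradation gene Herpud1 ends in CCAAT, 9 bases and CCAC, so the pattern is cut by the window edge. Bases after the gene start were not searched, and Herpud1 is not counted. The matches are given 5′ to 3′ on the strand of the element with 10 bases on either side, and capitals mark CCAAT and CCACG.
Hspa5, chr2:34772015-34772053, plus strand: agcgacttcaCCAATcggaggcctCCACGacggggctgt
Hsp90b1, chr10:86705628-86705666, minus strand: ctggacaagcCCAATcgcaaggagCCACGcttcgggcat
Hsp90b1, chr10:86705523-86705561, plus strand: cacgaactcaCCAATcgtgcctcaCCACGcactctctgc
Calr, chr8:84847065-84847103, plus strand: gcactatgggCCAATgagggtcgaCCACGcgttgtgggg
Canx, chr11:50325790-50325828, minus strand: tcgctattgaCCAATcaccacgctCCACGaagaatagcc
Dnajc3, chr14:118937817-118937855, plus strand: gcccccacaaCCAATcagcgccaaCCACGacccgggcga
Creld2, chr15:88819510-88819548, minus strand: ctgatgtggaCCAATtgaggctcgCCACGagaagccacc
Pdia6, chr12:17266481-17266519, plus strand: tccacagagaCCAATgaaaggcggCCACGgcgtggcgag
Syvn1, chr19:6046522-6046560, plus strand: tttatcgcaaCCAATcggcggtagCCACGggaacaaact

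The amino acid response is read from a C/EBP-ATF element, to which Atf4 binds together with a C/EBP protein. It was searched as TGATGNAA on both strands and was found in 4 of the 31 genes, against 3.45% of all windows. The 4 are Asns and Chac1 of the amino acid response, Atf3 of the transducers and Herpud1 of the degradation genes. Capitals mark the match, again on the strand of the element.
Asns, chr6:7693215-7693242, minus strand: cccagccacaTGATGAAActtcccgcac
Chac1, chr2:119351039-119351066, minus strand: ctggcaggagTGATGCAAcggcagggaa
Atf3, chr1:191183426-191183453, plus strand: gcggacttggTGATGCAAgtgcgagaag
Herpud1, chr8:94386307-94386334, minus strand: gggtgcgggcTGATGCAAcccgccgtgg
The unfolded protein response element, searched as TGACGTGG, was in 0.563% of all windows and in none of the windows of these 31 genes. No 2 of the printed matches overlap. A match is a stretch of letters and not a measured binding site, and no match says only that these letters are not in this window.

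**Figure D1:**
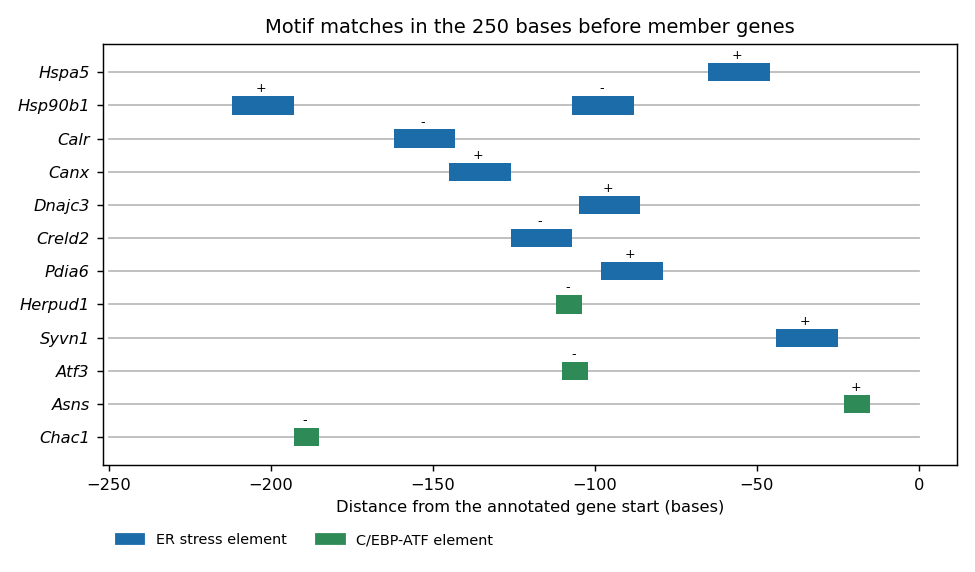
Matches to the ER stress element (blue) and the C/EBP-ATF element (green) in the 12 genes that hold one, by distance in bases from the annotated gene start, with the strand relative to the gene above each bar. The match of Hspa5 lies 65 to 47 bases before the start, that of Asns 23 to 16 bases before it, and Hsp90b1 holds 2 matches.

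Signals below are array intensities on a linear scale as deposited, and ratios are log2 of Cbs null over control. Genes were kept where the mean of both signals was at least 70.5, the median of all probe sets, and each gene is given by its probe set of highest mean signal unless another is named. Of the 35 genes 31 were kept, each with both signals above that limit, so none passed through 1 array alone. Ern1, Trib3, Chac1 and Sesn2 were too dim. Signals of different genes come from different probes, so the level of 1 gene is not set against that of another.

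None of the 31 kept genes was at least 1.5-fold apart in either direction. Of all 7079 kept genes, 2.46% (174) lay that far above control and 1.33% (94) that far below it; with each array centred on its median the counts were 132 above and 124 below. The ratios of the 31 ran from -0.39 for Pdia4 to 0.46 for Ppp1r15a, inside the range of -0.48 to 0.58 that held 95% of kept genes. In the brightest tertile of kept genes, from a mean signal of 372.8, the like range was narrower, at -0.41 to 0.46. Hyou1, Hsp90b1 and Pdia3 belong to that tertile and lie inside its range. At the smaller limit of 1.2-fold, chosen after the values were seen, 5 of the 31 were lower (Pdia4, Ddit3, Hyou1, Hsp90b1 and Pdia3) and 2 were higher (Ppp1r15a and Phgdh). The background at that limit was 9.07% lower and 13.8% higher (642 and 980 genes, or 906 and 713 with each array centred on its median). The only spread that 2 arrays offer is that between probe sets of 1 gene. The ratios of the 2 kept probe sets of highest mean signal differed with an SD of 0.30 over 2284 genes. This is the SD of a difference between 2 ratios and not of 1 ratio, and it holds no variation between animals. The difference of Pdia4 from 0 is little larger than that SD, which is not the error of a single ratio.

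By sign, 20 of the 31 ratios were below 0, or 64.5%, where the background was 44.9% of kept genes. The median of the 31 was -0.07 and that of all kept genes 0.02. By role, the median was -0.11 for chaperones, -0.07 for degradation genes and 0.21 for the 3 kept amino acid response genes. For stress transducers it was -0.02, a value whose sign changed with the processing (0.06 without probe sets whose probes could match more than 1 transcript). With the 4 dim genes let in, the median was -0.07 over 35 genes, -0.01 over 8 transducers and 0.29 over 6 amino acid response genes, beside 0.00 over all 12393 genes. Of the 3 marker genes of the set, Ddit3 had a ratio of -0.36, Hspa5 0.03 and Herpud1 0.19. The sign of the last 2 depended on the probe set, since the other probe set gave -0.32 for Hspa5 and -0.13 for Herpud1.

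**Figure D2:**
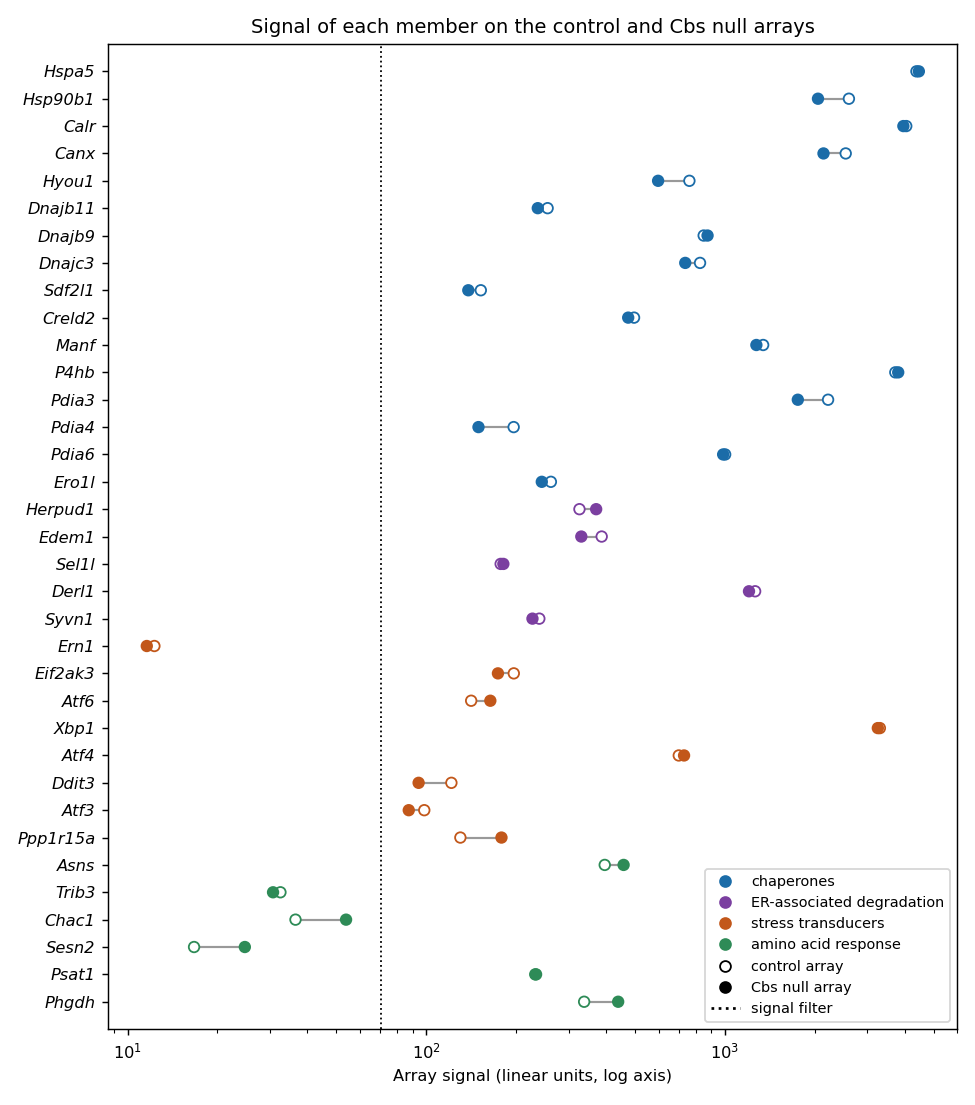
Signal of each gene on the control array (open circles) and the Cbs null array (filled circles) in its probe set of highest mean signal, on a log axis, coloured by role. The dotted line is the limit of 70.5 on mean signal, and Ern1, Trib3, Chac1 and Sesn2 lie to its left; for most genes the 2 circles nearly touch.

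The chaperones were mostly a little lower on the Cbs null array, while the direction of the group's central member, Hspa5, depended on the probe set. Of 16 genes 13 had a ratio below 0, where 44.9% of all kept genes did. With each array centred on its median all 16 did, where 56.7% of kept genes were below 0. With quantile normalization and with a loess trend removed it was 13 of 16, where 48.1% and 47.2% of kept genes were below 0. Hspa5 encodes BiP, the ER Hsp70 that also holds the stress sensors inactive. It read 4376.9 in control and 4458.7 in Cbs null, a ratio of 0.03, which was -0.03 with each array centred on its median and -0.15 with the median over its probe sets. Its other probe set read 2185.2 and 1748.7, a ratio of -0.32, so the 2 probe sets of Hspa5 differ in sign.

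Hsp90b1, the ER Hsp90 known as GRP94, read 2600.7 in control and 2048.9 in Cbs null. Its ratio of -0.34 had 5.54% of kept genes below it, and its other probe set, at 1193.6 and 889.6, gave -0.42. Both probe sets of Hsp90b1 were thus lower by a like amount. Hyou1, an Hsp110 that recharges BiP with ATP, read 760.4 and 597.4, a ratio of -0.35, and its other kept probe set gave -0.16. The remaining probe set of Hyou1, at 23.8 and 10.4, is under the limit and is not read.

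The lectin chaperones Calr and Canx hold newly made glycoproteins during folding. Canx, the membrane-bound one, read 2537.1 in control and 2137.8 in Cbs null, a ratio of -0.25, with -0.17 and -0.33 in its other probe sets. Calr, the soluble one, read 4045.9 and 3957.2, a ratio of -0.03, with -0.08 and -0.13 in its other probe sets. All 6 probe sets of this pair were lower on the Cbs null array, those of Calr by less.

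Of the disulfide isomerases, Pdia3 and Pdia4 were lower and P4hb and Pdia6 were nearly level. Pdia4 read 196.2 in control and 149.6 in Cbs null, or 1.31-fold lower and the lowest ratio of the set at -0.39. Pdia3, which works with Calr and Canx on glycoproteins, read 2214.8 and 1754.0, 1.26-fold lower at -0.34. P4hb, the classical isomerase and a subunit of prolyl 4-hydroxylase, read 3718.9 and 3802.8, at 0.03. Pdia6 read 1001.7 and 986.4, at -0.02. Each of these 4 rests on 1 kept probe set. Ero1l, the oxidase that passes oxidising power to the isomerases, read 261.4 and 243.7, and its 3 probe sets gave -0.10, -0.10 and -0.12.

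The J-domain co-chaperones, which hand clients to BiP, were close to level. Dnajb9 read 848.9 in control and 874.6 in Cbs null, at 0.04. Dnajb11 read 254.9 and 236.3, at -0.11. Dnajc3, which also inhibits eIF2 kinases, read 825.4 and 736.5, at -0.16, but its 4 kept probe sets ran from -0.16 to 0.52 with 2 on either side of 0. No direction can be read for Dnajc3 from these arrays.

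The small ER proteins that are strongly induced by ER stress in other systems were each slightly lower. Sdf2l1, a partner of Dnajb11, read 152.3 and 138.3, at -0.14. Manf, a secreted stress-induced factor, read 1342.6 and 1274.3, at -0.08. Creld2 read 496.3 and 474.4, at -0.07. These 3 genes have 1 probe set each. Their ratios are smaller in size than 0.30, the SD of the difference between probe sets of 1 gene. That SD is not the error of a single ratio.

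Genes that remove misfolded protein from the ER showed no common direction, with 3 of 5 below 0. Herpud1, a stress-induced organiser of the degradation complex, read 325.8 in control and 370.6 in Cbs null, at 0.19, while its other probe set, at 294.0 and 267.9, gave -0.13. Edem1, a lectin that delivers glycoproteins to degradation, was lower in both probe sets, at 386.7 and 330.5 (-0.23) and at 394.3 and 312.8 (-0.33). Derl1, a channel protein of the same path, read 1262.1 and 1203.8, at -0.07, and its 4 probe sets ran from -0.40 to -0.02. The ubiquitin ligase Syvn1 (HRD1) and its partner Sel1l were nearly level. Syvn1 read 239.1 and 226.8, at -0.08, and Sel1l read 177.5 and 181.2, at 0.03. Edem1 and Derl1 are thus the only 2 of the 5 with several kept probe sets that all lie below 0.

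**Figure D3:**
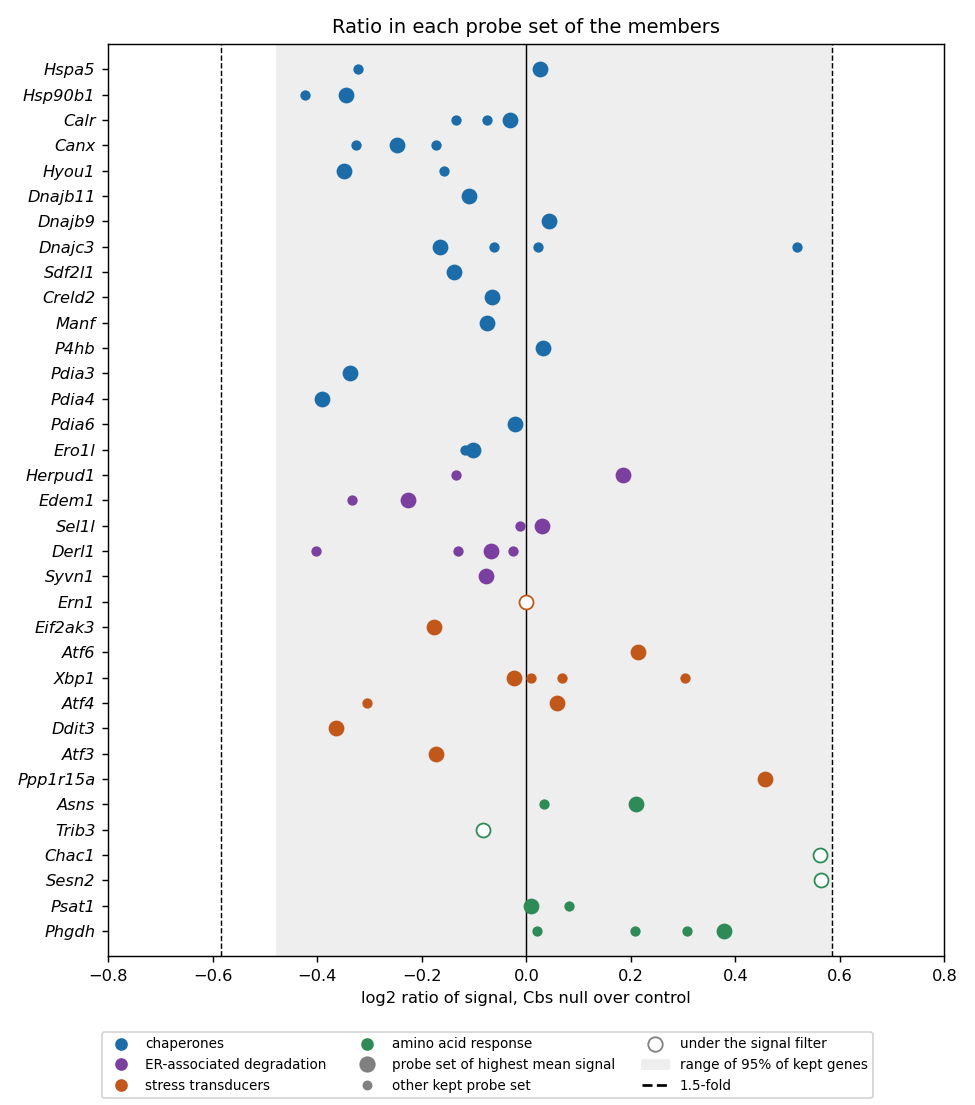
Log2 ratio of Cbs null over control in each kept probe set, by gene and role; large circles are the probe set of highest mean signal, small ones the others, and open circles lie under the signal limit. The grey band from -0.48 to 0.58 holds 95% of kept genes and the dashed lines mark 1.5-fold; all large filled circles lie inside the band, and the probe sets of Hspa5, Dnajc3, Herpud1, Sel1l, Xbp1 and Atf4 fall on both sides of 0.

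Of the 3 sensors, the 2 that were kept differed in sign, each on 1 kept probe set. Atf6, the precursor of a transcription factor, read 141.4 in control and 163.9 in Cbs null, at 0.21. Eif2ak3 read 196.4 and 173.8, at -0.18. Ern1 read 12.3 and 11.6, below the floor of 14.3, and the same held for its other 2 probe sets, so nothing can be said of its level. Sensors are switched on through their proteins, which these arrays do not measure.

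Of the transcription factors, Xbp1 and Atf4 were level in their probe sets of highest mean signal. Xbp1, whose mRNA is spliced by Ern1, read 3301.6 and 3250.0, at -0.02, and its other probe sets gave 0.07, 0.01 and 0.30. The probe sets do not tell the spliced form from the unspliced one here. Atf4 read 700.6 and 729.7, at 0.06, while its other kept probe set read 360.4 and 291.6, at -0.31. Atf4 is controlled mainly at translation, so its mRNA is a weak guide to its activity.

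Targets downstream of Atf4 had ratios of opposite sign. Ddit3 (CHOP), the factor tied to cell death under lasting stress, read 121.4 in control and 94.3 in Cbs null, or 1.29-fold lower at -0.36, with 4.77% of kept genes below it. Atf3, a stress-induced repressor, read 98.5 and 87.4, at -0.17. Ppp1r15a (GADD34), the phosphatase subunit that restores translation, read 130.1 and 178.6, which is 1.37-fold higher at 0.46, with 4.66% of kept genes above it. Ddit3 and Ppp1r15a thus lie near opposite ends of the set, each on 1 probe set, and both are among the dimmer signals, where ratios spread more: 95% of the dimmest tertile of kept genes ran from -0.53 to 0.66.

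Amino acid response genes had the highest median ratio of the 4 roles. Asns, asparagine synthetase, read 395.9 in control and 457.9 in Cbs null, at 0.21, and its other probe set gave 0.03. Phgdh, the first enzyme of serine synthesis, read 337.8 and 439.1, which is 1.30-fold higher at 0.38. Its other 3 single-gene probe sets gave 0.02, 0.21 and 0.31, and all 4 carry the suffix for probes that may match other transcripts. Another 2 probe sets, annotated to Phgdh together with a second gene and left out of the counts, gave 0.52 and -0.04. Psat1, the next enzyme of that path, read 231.7 and 233.2, at 0.01, with 0.08 in its other probe set. Serine is the partner of homocysteine in the reaction that Cbs catalyses.

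The 3 other amino acid response genes were dim on both arrays. Chac1, which degrades glutathione, read 36.5 and 53.9, which is 1.48-fold higher. Sesn2, a sensor of leucine, read 16.7 and 24.7, also 1.48-fold higher, and raising the floor to the 40th percentile brought its ratio from 0.56 to 0.00. Trib3, an inhibitor of Atf4 and of Akt, read 32.5 and 30.7, at -0.08, and 0.24 in the probe set left when those that may match several transcripts are set aside. Signals this dim lie below the limit of 70.5, and their ratios are imprecise.

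**Figure D4:**
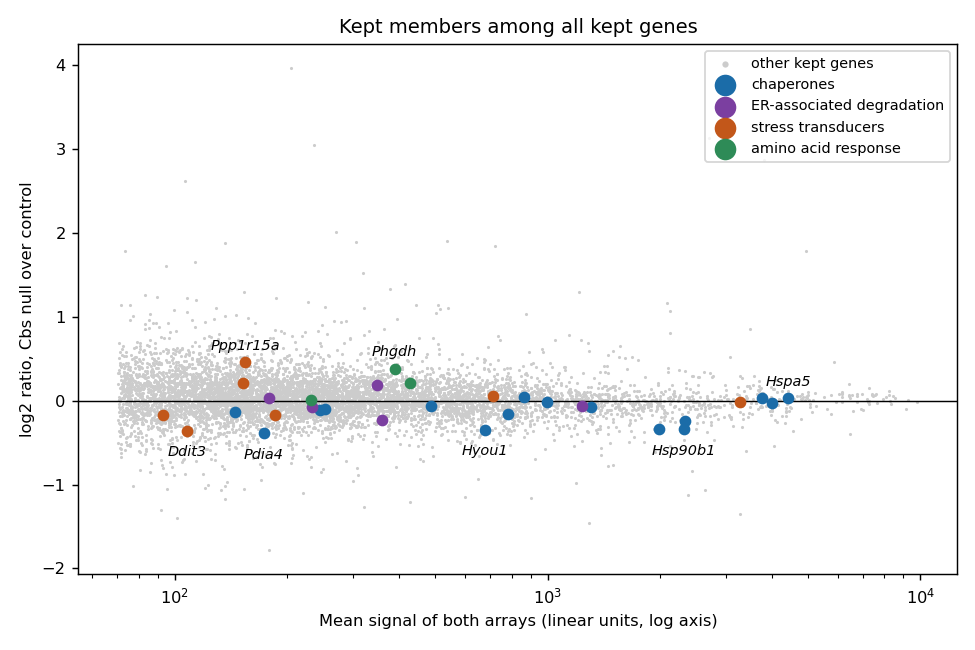
Log2 ratio of Cbs null over control against mean signal on a log axis, for 7079 kept genes (grey), with the 31 kept genes of the set coloured by role. The coloured points lie between -0.39 and 0.46, within the grey cloud, and most blue points (chaperones) lie below the line at 0.

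Agreement between probe sets gives a second view of direction. Of the 31 kept genes 16 had several kept probe sets, and 7 of these had every probe set below 0, or all of Hsp90b1, Calr, Canx, Hyou1, Ero1l, Edem1 and Derl1. The background was 27.1% of 2284 such genes. A further 3 had every probe set above 0, namely Asns, Psat1 and Phgdh, where the background was 26.9%. The other 6 were split. Probe sets of 1 gene on 1 array share the RNA sample, so they repeat the measurement and not the animal.

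The promoter matches shown above did not sort the chaperones by ratio. The 7 chaperones with an ER stress element in the window had a median of -0.07, from -0.34 for Hsp90b1 to 0.03 for Hspa5. The 7 with a window and no match had a median of -0.11, from -0.39 for Pdia4 to 0.04 for Dnajb9. Syvn1, the eighth gene with the element, had -0.08. Of the genes with a C/EBP-ATF element, Asns had 0.21, Herpud1 0.19 and Atf3 -0.17, and Chac1 was too dim. These groups are small, and the values are descriptions.

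Wider lists of the same pathways, none of whose genes belongs to the 35, had medians close to the 0.02 of all kept genes, apart from stress signalling. For folding and translocation, 15 of 30 kept genes were below 0, with a median of 0.01. Ppib, an ER prolyl isomerase, had 0.11 and Serpinh1, the collagen chaperone, -0.08. For degradation, 5 of 15 were below 0, with a median of 0.03, Vcp, the ATPase that extracts proteins, at -0.15 and Selenos at 0.03. For stress signalling, 3 of 14 were below 0, with a median of 0.11, Tmbim6 at 0.17 and Creb3l2 at 0.03. For the integrated stress response, 10 of 25 were below 0, with a median of 0.02, Vldlr at -0.00 and Eif4ebp1, a translation repressor, at -0.08. None of these 84 genes was 1.5-fold apart.

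**Figure D5:**
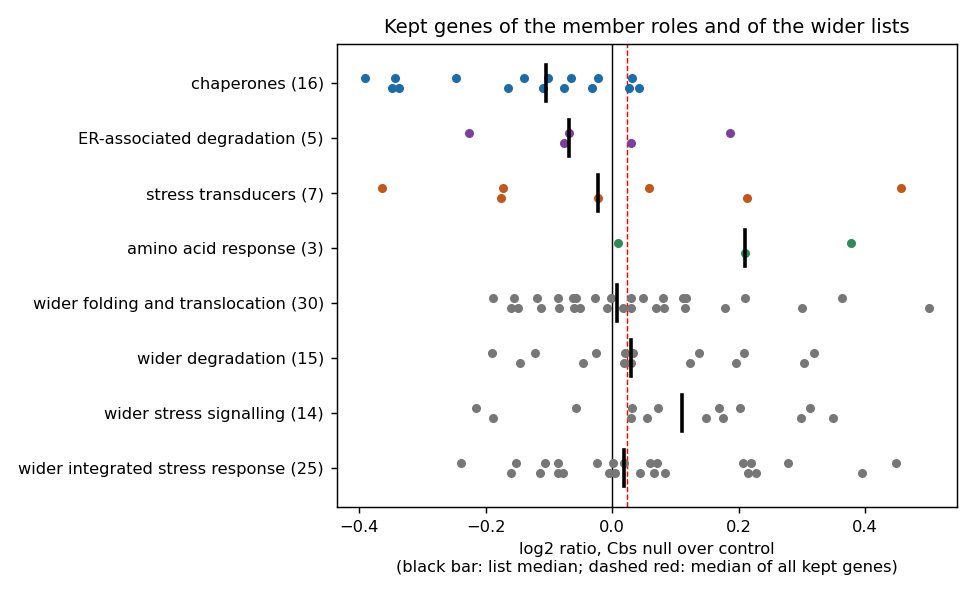
Log2 ratio of Cbs null over control for each kept gene of the 4 roles (coloured) and of 4 wider lists (grey), with the number of genes in brackets; black bars are medians and the dashed line is the median of all kept genes, 0.02. The chaperones have a median of -0.11 and the wider folding list 0.01, while the 3 amino acid response genes have 0.21.

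The cell makeup of the sites bears on all of these values, since in whole tissue fewer cells of a type and less RNA per cell cannot be told apart. Sums of signal below are given for each marker list, and genes with bright probes weigh most in them. Decidual markers were present on both arrays (9 of 10 kept, 5 above 0 and 4 below, summed signal 9681.4 in control and 9077.8 in Cbs null). Within that near-level sum Bmp2 had a ratio of -1.21 and Tdo2 -0.84, both over 1.5-fold lower, and Prl8a2 had 0.52. Markers of uterine epithelium summed to 5677.4 and 21950.2 (9 of 10 kept, 8 of them above 0). Prss28, Prss29 and Spink1 carried most of that difference, and the other 7, a split made after the values were seen, summed to 1982.1 and 2784.6, with Cdh1 level at -0.02. Markers of uterine natural killer cells summed to 13649.6 and 6113.3 (8 of 9 kept, 7 below 0), and of macrophages to 5077.4 and 7308.2 (7 of 7 kept, 6 above 0). Those of yolk sac endoderm summed to 640.3 and 1113.7 (3 of 8 kept). In that sum Rbp4 was level, at 522.0 and 523.2, Afp read 24.7 and 384.6 and Ttr 33.0 and 113.6, the last 2 kept through the Cbs null array alone. Plasma cell markers summed to 1517.3 and 1685.5 (4 of 5 kept, 4 above 0), with Tnfrsf17 near 0. In that sum Jchain read 878.9 and 928.2, while Ighm read 82.8 and 158.4, a ratio of 0.94. The ratio of 3′ to 5′ signal of Gapdh was 1.07 and 1.15. Their part in the ratios of the chaperones and stress genes was not tested. Cbs itself was dim, at 30.3 and 23.8, and the labels do not say which part was deleted, so it does not check the genotype.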

How the data were processed

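Biotin-labelled cRNA from 2 implantation site samples was hybridised to Affymetrix arrays. The authors deposited 1 linear intensity per probe set for each sample. GCOS 1.4 produced it, per the submitters' processing notes, and neither its algorithm nor detection calls are stated in the sources used here. On both arrays the trimmed mean was 200.08, so no further scaling was done. Of 22690 probe sets, 64 controls and those with several gene symbols or none were set aside. Values under 14.3, the 25th percentile, were raised to it, and log2 ratios were taken. The number of arrays limits the precision. All members are named; from each wider list genes at least 1.5-fold apart are named, or else the 2 of highest mean signal. The members, lists, motifs and alternatives were chosen with earlier results of these data known. Alternatives concerned scaling, floor, filter and choice of probe set. The ratio script was tested on simulated data with noise of a chosen size, and that test set no requirement for 1.2-fold changes. Promoters came from RefSeq, build GRCm38.p6. Computation used Python 3.11.15.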

Additional observations from a re-analysis of the deposited data

How the results depend on the processing

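The count of 0 genes at least 1.5-fold apart, in either direction, was the same under all 12 alternatives. The 5 medians moved by less than 0.1 except that of the stress transducers, which went from -0.02 to -0.12 with the median over probe sets. It was above 0 in 2 alternatives, at 0.06 without probe sets whose probes could match more than 1 transcript and 0.02 with the filter at the 75th percentile. Of the 31 kept genes 24 had a ratio of 1 sign in every alternative that gave them one, 19 below 0 and 5 above. The other 7 were Hspa5, Dnajb9, P4hb, Sel1l, Xbp1, Atf4 and Psat1. Alternatives of floor and filter could not change the sign of a kept gene, so this count rests on scaling and choice of probe set. Some genes, Phgdh and Ddit3 among them, had a ratio in only 11 of the 12 alternatives. The 24 include Dnajc3 and Herpud1, whose kept probe sets lie on both sides of 0. Genes below 0 numbered 22 of 31 with quantile normalization, 25 with each array centred on its median and 21 with a loess trend removed, where 48.1%, 56.7% and 47.2% of kept genes were below 0. At 1.2-fold, a limit added after the data were seen, 3 to 7 genes of the set were lower and 1 to 4 higher. Over the same settings 7.6% to 13.6% of all kept genes were lower and 9.4% to 18.5% higher. The 7 lower came with each array centred on its median, where 12.8% of kept genes were lower. The 4 higher came with the filter at the 25th percentile or with none, which let in the dim Chac1 and Sesn2. With the filter at the 25th percentile 496 genes were 1.5-fold higher and 357 lower, and at the 75th 61 and 36. No paired analysis was possible because each genotype has 1 array. Signal over background limits Ern1, Trib3, Chac1 and Sesn2.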

Other observations

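Of the 84 kept genes of the 4 wider lists, 11 (13.1%) were at least 1.2-fold higher on the Cbs null array, close to the 13.8% of all kept genes. The 5 furthest above 0, picked after their values were seen, are given here. Fkbp11, an ER prolyl isomerase of secretory cells, read 162.6 in control and 230.2 in Cbs null, at 0.50. Txndc5, a disulfide isomerase, read 843.4 and 1085.7, at 0.36. Wfs1, an ER membrane protein, read 148.1 and 188.6, at 0.35. Of the integrated stress response list, Ddit4, an inhibitor of mTORC1, read 238.3 and 325.4, at 0.45, and Slc3a2, the heavy chain of amino acid transporters, read 524.1 and 688.9, at 0.39. None of the 84 was at least 1.2-fold lower, against 9.07% of all kept genes, and 4 of the 16 chaperones were; these differences were not tested. All 5 named ratios lie within the range of 95% of kept genes.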
